A study of Drosophila melanogaster with 4 samples.

Results

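Innexins and adhesion genes, some of which hold germ cells to the surrounding soma, were followed in ovaries of *Drosophila melanogaster*. The 10 genes were chosen by name from the FlyBase symbols, with earlier results of these data known. All 10 were found among the 17023 genes of the count tables. They are 5 innexins (*zpg*, *ogre*, *Inx2*, *Inx3* and *Inx7*), the cadherins *shg* and *CadN*, the catenins *arm* and *alpha-Cat*, and *Con*. Poly(A) RNA was sequenced from 2 libraries of *aramis* RNAi ovaries and 2 libraries of *bam* RNAi ovaries, which serve as the developmental control. The *aramis* RNAi ovaries carried UAS-Dicer2 and NosGAL4 with an RNAi construct against *aramis*, a helicase gene annotated as *ais*. The *bam* RNAi ovaries carried the same UAS-Dicer2 and NosGAL4 with a construct against *bam*, which promotes differentiation of the stem cell daughter. A paper that re-used the *bam* RNAi libraries lists them as enriched for this daughter cell, with somatic cells also present. Fold changes and ratios below are thus relative to ovaries rich in such germ cells. NosGAL4 drives expression in germ cells, so somatic cells were not targeted directly in either genotype, and whole ovaries were sequenced. Females were fed yeast and dissected 1 to 3 days after eclosion.

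Innexins are the proteins of invertebrate gap junctions, channels that join the cytoplasm of neighbouring cells. Zpg (also called Inx4) is the germline innexin, and germ cells that lack it fail to differentiate and are lost. In the ovary its channels face those of somatic innexins such as Inx2 in the escort and follicle cells. E-cadherin, the product of *shg*, anchors germline stem cells to the cap cells of the niche together with beta-catenin (*arm*) and alpha-catenin.

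The libraries held between 12977013 and 16754980 counts, and every one of the 10 genes had at least 175 counts in each library. The labels do not say whether replicates came from separate sets of flies, so p-values measure the spread between these samples. With 2 replicates per group, an exact two-sided permutation test cannot give a p below 0.333, so p-values for single genes come from the DESeq2 Wald test fitted over 11128 genes. The 8 marker lists described the tissue. Of the 16 germline markers tested, 11 were lower in *aramis* RNAi and 0 were higher, and their summed level was 1361 and 1589 CPM (counts after scaling by library total) in *aramis* RNAi against 3713 and 5217 CPM in *bam* RNAi. Of 13 ovarian somatic markers, 1 (*tj*) was lower and 0 were higher, at 593 and 828 CPM against 1294 and 641 CPM in *bam* RNAi, while *slbo* of migrating follicle cells had at most 3 counts in any library. Higher in *aramis* RNAi were 9 of 13 muscle markers, 7 of 9 hemocyte markers and 4 of 7 fat body markers. Eggshell and yolk genes were lower for 6 of 10, and the neural and tracheal lists had 0 of 8 and 1 of 5 past the test. *ais*, the targeted gene, had normalised counts (counts divided by the DESeq2 size factor of the library) of 117 and 153 in *aramis* RNAi against 910 and 323 in *bam* RNAi. Its log2 fold change was -2.19 (DESeq2 adjusted p = 0.00186), and -1.26 without *bam* RNAi replicate 1 (DESeq2 adjusted p = 0.15). Without *aramis* RNAi replicate 1 or 2 the adjusted p was 0.223 and 0.0636, and scaled to the germline markers the log2 fold change was -0.41 (0.603). *bam* itself had 50.3 and 72.7 normalised counts in *aramis* RNAi against 60.0 and 70.4 in *bam* RNAi, which overlap (log2 fold change -0.09, DESeq2 adjusted p = 0.948), but scaled to the germline markers the value was 1.83 (DESeq2 adjusted p = 0.0201). The antisense gene *CG11854* shares 224 nt of its exon sequence, which leaves the *bam* counts uncertain. Driver-only ovaries were not analysed here.

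Among the innexins, *zpg* and *Inx7* fell and *Inx3* rose in *aramis* RNAi ovaries relative to *bam* RNAi ovaries, and of the adhesion genes *Con* rose. When the libraries were scaled to germline markers, however, *zpg* turned to 0.22 and *Inx7* to -0.27 on the log2 scale. The calls of *Inx3* and *Con* were lost in edgeR, with total-count scaling and with scaling to ovarian somatic markers. That of *zpg* was also lost with the last of these (log2 fold change -1.67, DESeq2 adjusted p = 0.119). Higher and lower are relative to the median of all genes, which the DESeq2 size factors hold near 0. Scaling to the germline markers moved that median to 1.82, and the adjusted p on that scale still tests against 0. Of the 10 genes, 4 passed an adjusted p of 0.05, against 15.9% of all genes tested. The 2 that rose stand beside 8.9% of all genes and the 2 that fell beside 7.04%. Past the 4-fold limit as well was 1 gene, *Inx7*, which was lower, and 0 were higher. By that rule 6.25% of all genes were called, 2.99% as higher and 3.25% as lower. The groups did not overlap in 8 of the 10 genes, with *aramis* RNAi higher in 3 and lower in 5. Over all genes tested the groups were apart in 57.7%, higher in 27.4% and lower in 30.3%. The median log2 fold change of the 10 genes was -0.24 and that of all genes tested was -0.09.

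**Figure D1:**
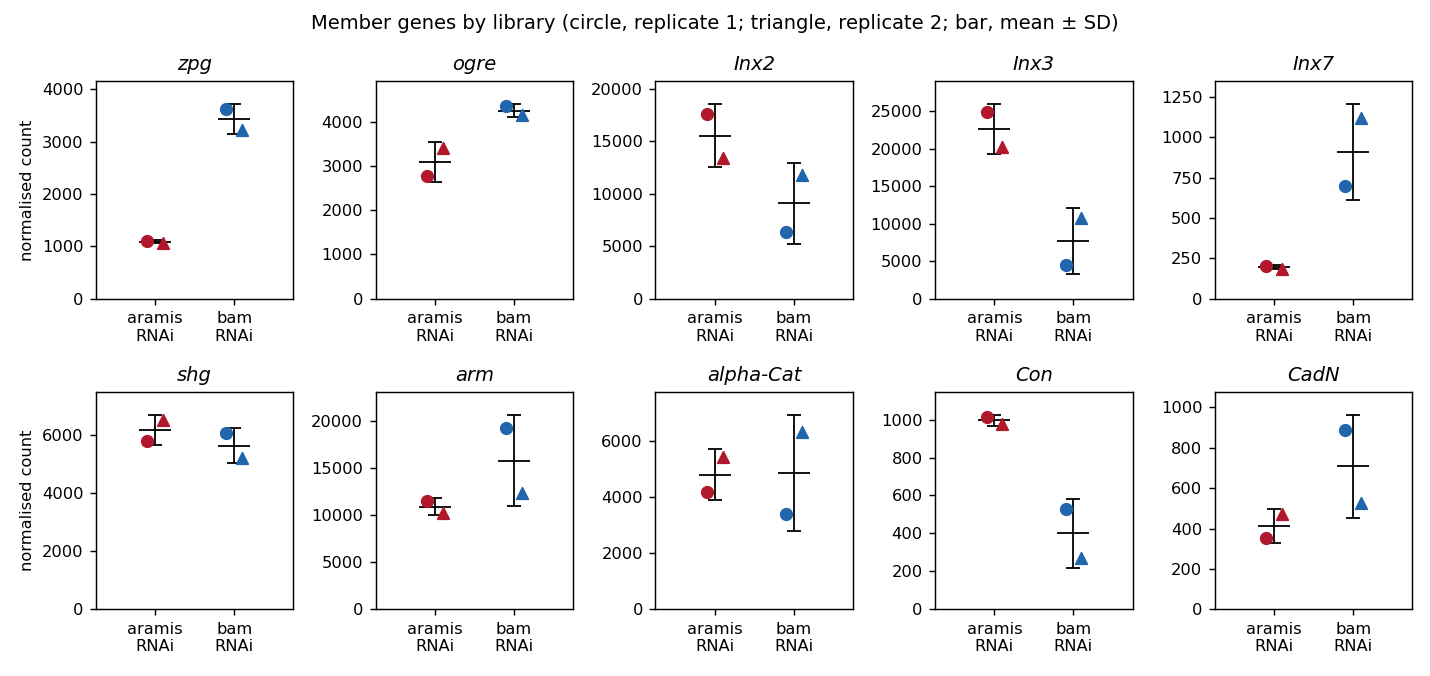
Normalised counts of the 10 genes in each library, with *aramis* RNAi left of *bam* RNAi in every panel; circles are replicate 1, triangles replicate 2, and the bar gives the mean ± SD (n = 2). The *zpg* values are low in *aramis* RNAi (1107 and 1069.6) and are higher in *bam* RNAi (3631 and 3226), while *shg* and *alpha-Cat* overlap between the groups.

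*zpg* (FBgn0024177; dm6 chromosome 3L, 6604366 to 6606032, minus strand, 3 exons in its longest transcript) stood at 1107 and 1069.6 normalised counts in *aramis* RNAi, against 3631 and 3226 in *bam* RNAi. The groups were far apart and the replicates close, as *aramis* RNAi averaged 1088 ± 26.4 and *bam* RNAi 3429 ± 287 (SD, n = 2 each). The level in *aramis* RNAi was thus 31.7% of that in *bam* RNAi. *zpg* fell by 1.66 on the log2 scale (SE 0.40, 95% interval -2.44 to -0.87, DESeq2 adjusted p = 0.000878). The value ran from -1.75 to -1.56 when any library was left out, but the call was lost without *aramis* RNAi replicate 1 (DESeq2 adjusted p = 0.202) or replicate 2 (0.131) and with scaling to the ovarian somatic markers (0.119). The gene lies inside the span of *Rexo5* on the other strand but shares no exon sequence with it.

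The germline markers tested were *osk*, *aub*, *AGO3*, *tud*, *spn-E*, *krimp*, *vret*, *tej*, *qin*, *rhi*, *del*, *cuff*, *otu*, *ovo*, *bgcn* and *orb*. The median log2 fold change of these 16 was -2.06, beside -1.66 for *zpg*. They ran from -2.77 (*rhi*) to 0.81 (*osk*), with 14 below 0 and 2 above it (*osk* and *tud*). Scaled to the germline markers instead of to all genes, *zpg* had 2142 and 2091 counts in *aramis* RNAi against 2233 and 1399 in *bam* RNAi, so the groups overlapped. The log2 fold change on that scale was 0.22 (DESeq2 adjusted p = 0.698), of the opposite sign. Fewer germ cells and less *zpg* RNA per germ cell cannot be told apart in bulk samples.

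*Inx7* (FBgn0027106; chromosome X, 6991612 to 6993612, minus strand, 3 exons) encodes a further gap junction protein and showed the steepest fall of the 10 genes. The normalised level was 203 and 187 counts in *aramis* RNAi, against 699 and 1118 in *bam* RNAi. Both *aramis* RNAi libraries were low and alike, whereas the *bam* RNAi libraries differed 1.60-fold from each other, with replicate 2 the higher. *aramis* RNAi averaged 195 ± 11.5 and *bam* RNAi 908 ± 296 (SD, n = 2 each), a log2 fold change of -2.22 (SE 0.46, 95% interval -3.13 to -1.31, DESeq2 adjusted p = 8.69e-05). Without *aramis* RNAi replicate 1 or 2 the DESeq2 adjusted p was 0.0743 and 0.0540, with log2 fold changes of -2.26 and -2.14. Its value of -2.22 likewise stood beside the -2.06 of the germline markers. Scaled to them *Inx7* had 393 and 366 counts in *aramis* RNAi against 430 and 485 in *bam* RNAi, or -0.27 on the log2 scale (DESeq2 adjusted p = 0.649). These groups did not overlap.

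*Inx3* (FBgn0265274; chromosome 3R, 28853606 to 28859497, minus strand, 6 exons), an innexin of epithelial cells, went the other way. It had 24945 and 20229 normalised counts in *aramis* RNAi, against 4549 and 10795 in *bam* RNAi. Both *aramis* RNAi values were higher, and the *bam* RNAi replicates differed 2.37-fold, with replicate 1 the lower. In *aramis* RNAi the mean was 22587 ± 3335, and *bam* RNAi averaged 7672 ± 4417 (SD, n = 2 each). *Inx3* was 2.94-fold higher (log2 fold change 1.56, SE 0.48, 95% interval 0.61 to 2.50, DESeq2 adjusted p = 0.0121). How large the rise was depended on *bam* RNAi replicate 1, since the log2 fold change was 2.30 without replicate 2 and 1.07 without replicate 1. The call was lost without *aramis* RNAi replicate 1 or 2 (DESeq2 adjusted p = 0.366 and 0.154), with total-count scaling (0.0695), with scaling to the ovarian somatic markers (0.339) and in the edgeR quasi-likelihood test (edgeR adjusted p = 0.0515). Scaled to the germline markers *Inx3* was at 3.55 on the log2 scale (DESeq2 adjusted p = 4.67e-12).

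*Inx2* (FBgn0027108; chromosome X, 6998672 to 7004151, plus strand, 2 exons), the somatic partner of Zpg, had 17667 and 13439.7 normalised counts in *aramis* RNAi, against 6374 and 11847 in *bam* RNAi. The groups did not overlap, but the lower *aramis* RNAi value and the higher *bam* RNAi value were close. Its log2 fold change of 0.77 (SE 0.45, 95% interval -0.11 to 1.65) did not pass the test (DESeq2 adjusted p = 0.235). Without *bam* RNAi replicate 2 the log2 fold change was 1.28, in a fit that holds no spread within *bam* RNAi. Scaled to the germline markers it was 2.74 (DESeq2 adjusted p = 2.89e-08).

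*ogre* (FBgn0004646; chromosome X, 6973620 to 6991318, minus strand, 8 exons), the gene of Innexin 1, had 2771 and 3401 normalised counts in *aramis* RNAi, against 4347 and 4149 in *bam* RNAi. All *aramis* RNAi values were lower, by a modest amount. The log2 fold change was -0.46 (SE 0.40, 95% interval -1.25 to 0.32, DESeq2 adjusted p = 0.469), and scaled to the germline markers it was 1.43. Of its exon sequence, 403 nt overlap the antisense gene *lncRNA:CR44084*, and the counts are uncertain to that extent.

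The innexin genes of the X chromosome described so far are neighbours. *ogre* and *Inx7* lie 293 nt apart on the same strand, and *Inx2* starts 5059 nt beyond *Inx7* on the other strand, with 1 noncoding gene between them. Along this stretch the log2 fold changes were -0.46 for *ogre*, -2.22 for *Inx7* and 0.77 for *Inx2*, of which that of *Inx7* passed the test. Differences between these values were tested only as ratios within libraries.

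The fly has 3 further innexin genes. *shakB* (FBgn0085387; chromosome X, 20761071 to 20927050), known for electrical synapses in the nervous system, had 4558 and 6054 normalised counts in *aramis* RNAi, against 3019 and 1419 in *bam* RNAi. It rose by 1.26 on the log2 scale (SE 0.47, DESeq2 adjusted p = 0.0461), a call close to the threshold. The DESeq2 adjusted p was 0.332 and 0.433 without *aramis* RNAi replicate 1 or 2 and 0.0887 without *bam* RNAi replicate 2, 0.143 with total-count scaling, 0.177 with scaling to the ovarian somatic markers and 0.0510 with no independent filtering, and the edgeR adjusted p was 0.0907. Scaled to the germline markers the log2 fold change was 3.06, and it was 1.91 without *bam* RNAi replicate 1. The summed neural markers stood at 150.3 and 218 CPM in *aramis* RNAi, against 206 and 128 CPM in *bam* RNAi, with *brp* at 20 and 18 counts against 22 and 10. Most of that sum was *elav* and *Syx1A*, and in *aramis* RNAi replicate 1 *Rdl* and *ChAT* were at 0. *Inx5* had 2 and 9 counts in *aramis* RNAi and 0 in both *bam* RNAi libraries, and *Inx6* had at most 4 counts in any library. Neither can be compared at this depth, where 3 counts were taken as the floor.

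**Figure D2:**
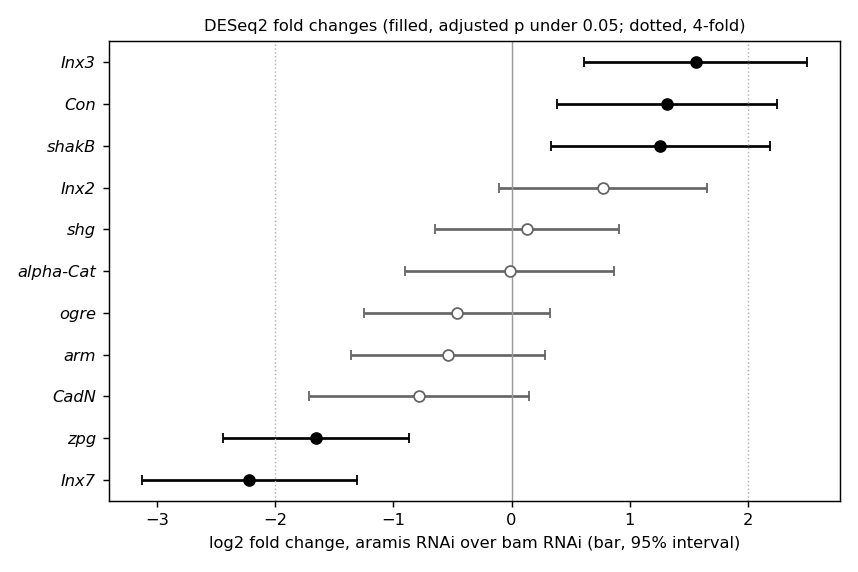
Log2 fold changes of the 10 genes and of *shakB*, *aramis* RNAi over *bam* RNAi, with 95% intervals as horizontal bars; filled points had a DESeq2 adjusted p under 0.05 and dotted lines mark 4-fold. *Inx7* (-2.22, and -0.27 when scaled to the germline markers) and *zpg* (-1.66, and 0.22 when so scaled) lie below 0. Above 0 lie *Inx3* (1.56), *Con* (1.31) and *shakB* (1.26), whose calls were lost in edgeR.

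Of the cadherin and catenin genes *shg*, *arm*, *alpha-Cat* and *CadN*, 0 passed the test in DESeq2 and 0 in edgeR, and 0 had an unadjusted DESeq2 p under 0.05, the smallest being 0.0991 for *CadN*. *shg* (FBgn0003391; chromosome 2R, 21049654 to 21057197, minus strand, 2 exons) had 5788 and 6526 normalised counts in *aramis* RNAi, against 6053 and 5210.4 in *bam* RNAi, and the groups overlapped. Its log2 fold change was 0.13 (SE 0.40, 95% interval -0.65 to 0.91, DESeq2 adjusted p = 0.859) and turned to -0.23 with total-count scaling. Scaled to the germline markers it was 2.00 (DESeq2 adjusted p = 0.000102), beside 1.82 for the median of all genes. The 95% interval given above includes changes of nearly 2-fold in the upward direction, so a difference of that size was not excluded here.

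*arm* (FBgn0000117; chromosome X, 1891401 to 1900646, minus strand, 7 exons), which encodes the beta-catenin that binds the cadherin tail and also carries the Wingless signal, had 11553 and 10268 normalised counts in *aramis* RNAi. In *bam* RNAi it had 19248 and 12413. The values did not overlap, but the *bam* RNAi replicates differed 1.55-fold, about as much as the group means. The log2 fold change was -0.54 (SE 0.42, 95% interval -1.36 to 0.28, DESeq2 adjusted p = 0.410), and 1.30 when scaled to the germline markers. *arm* shares 82 nt of exon sequence with *mRpL16* on the other strand.

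*alpha-Cat* (FBgn0010215; chromosome 3L, 23318646 to 23338100, minus strand, 11 exons), which links the cadherin complex to actin, had 4165 and 5434 normalised counts in *aramis* RNAi, against 3399 and 6312 in *bam* RNAi. The *bam* RNAi values lay on either side of both *aramis* RNAi values. With a log2 fold change of -0.02 (SE 0.45, 95% interval -0.90 to 0.87, DESeq2 adjusted p = 0.985) no difference was detectable. Scaled to the germline markers the value was 1.95 (DESeq2 adjusted p = 9.56e-05), beside 1.82 for the median of all genes.

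*CadN* (FBgn0015609; chromosome 2L, 17647053 to 17778340, minus strand, 24 exons), the gene of N-cadherin, had 351 and 471 normalised counts in *aramis* RNAi, against 887 and 527 in *bam* RNAi. Both *aramis* RNAi libraries were lower, and the higher of them was close to *bam* RNAi replicate 2. The log2 fold change was -0.78 (SE 0.47, 95% interval -1.71 to 0.15, DESeq2 adjusted p = 0.258), and 1.05 when scaled to the germline markers. *CadN* has the longest transcript of the 10 genes (13384 nt), and with an offset for transcript length the value was -0.93 (DESeq2 adjusted p = 0.0824).

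*Con* (FBgn0005775; chromosome 3L, 4936758 to 5079033, minus strand, 8 exons) encodes Connectin, a leucine-rich repeat protein of the cell surface that binds itself on other cells and is known from muscles and motor neurons. It had 1016 and 977 normalised counts in *aramis* RNAi, against 529 and 272 in *bam* RNAi. The *aramis* RNAi replicates were nearly equal, and both were above both *bam* RNAi values, which differed 1.94-fold. *aramis* RNAi averaged 996 ± 27.5 and *bam* RNAi 401 ± 182 (SD, n = 2 each), so *Con* was 2.49-fold higher in *aramis* RNAi (log2 fold change 1.31, SE 0.48, 95% interval 0.38 to 2.25, DESeq2 adjusted p = 0.0371). The call was lost without *aramis* RNAi replicate 1 or 2 (DESeq2 adjusted p = 0.423 and 0.296) or *bam* RNAi replicate 2 (0.0917), with total-count scaling (0.121), with scaling to the ovarian somatic markers (0.180) and in edgeR (edgeR adjusted p = 0.0862). Scaled to the germline markers *Con* was at 3.13 on the log2 scale (DESeq2 adjusted p = 2.82e-07).

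Markers of other cell types differed in the same direction as *Inx3* and *Con*. The 13 muscle markers summed to 48434 and 49738 CPM in *aramis* RNAi, against 24239 and 19295 CPM in *bam* RNAi, and 9 of them passed the test as higher. The 9 hemocyte markers summed to 5676 and 6762 CPM in *aramis* RNAi, against 3751 and 1801 CPM in *bam* RNAi, with 7 higher and *lz* at 0 in *bam* RNAi replicate 1. The 7 fat body markers summed to 963 and 397 CPM in *aramis* RNAi, against 111 and 162 CPM in *bam* RNAi, with 4 higher. The 5 tracheal markers summed to 108 and 104 CPM in *aramis* RNAi, against 71.2 and 60.3 CPM in *bam* RNAi, with 1 higher and *kkv* at 0 in *aramis* RNAi replicate 1. Their part in the rise of *Inx3* and *Con* was not tested.

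Because the sign of several fold changes depended on the scaling, ratios between pairs of the genes were also taken within each library, where scaling cancels. The ratio of *zpg* to *Inx2* counts was 0.0627 and 0.0796 in *aramis* RNAi, against 0.570 and 0.272 in *bam* RNAi. The germline innexin was thus scarcer relative to its somatic partner in both *aramis* RNAi libraries, by 2.48 on the log2 scale on average (5.58-fold lower). Per kilobase of transcript, *zpg* stood at 0.214 and 0.272 of *Inx2* in *aramis* RNAi, against 1.95 and 0.932 of it in *bam* RNAi. Germline markers were lower and muscle, hemocyte and fat body markers higher in the same libraries, as given above. Their part in the *zpg* to *Inx2* ratio was not tested.

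The widest shift was that of *Inx7* against *Inx2*, at 0.0115 and 0.0139 in *aramis* RNAi, against 0.110 and 0.0944 in *bam* RNAi, or 8.04-fold lower. *Inx3* gained on *Inx2*, with ratios of 1.41 and 1.51 in *aramis* RNAi, against 0.714 and 0.911 in *bam* RNAi, whereas *ogre* lost, with 0.157 and 0.253 against 0.682 and 0.350. In the adherens junction genes, *shg* to *arm* was 0.501 and 0.636 in *aramis* RNAi, against 0.314 and 0.420 in *bam* RNAi. The ratio of *Con* to *shg* was 0.175 and 0.1496 in *aramis* RNAi, against 0.0874 and 0.0522 in *bam* RNAi, and that of *CadN* to *shg* was 0.0607 and 0.0722 against 0.147 and 0.101. The ratio of *alpha-Cat* to *arm* was the one of the 8 that overlapped, at 0.361 and 0.529 in *aramis* RNAi, against 0.177 and 0.509 in *bam* RNAi. For the other 7 the exact two-sided permutation p was 0.333, the smallest that 2 libraries against 2 allow, and 0.381 after Benjamini-Hochberg adjustment over the 8 ratios. Among all 45 pairs of the genes followed here, the groups did not overlap in 35, including all 9 pairs with *zpg*. Ratios that did not overlap were thus the usual outcome, which does not set these 7 apart.

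**Figure D3:**
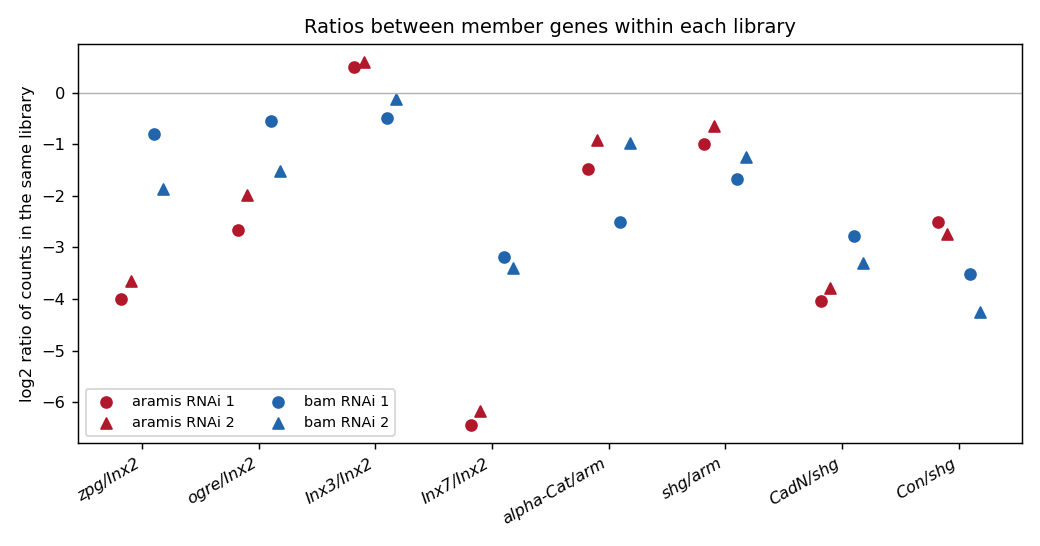
Log2 ratios of counts of 2 genes in the same library for the 8 pairs, with *aramis* RNAi (red) left of *bam* RNAi (blue) in each pair; circles are replicate 1 and triangles replicate 2. The pairs with *zpg* and *Inx7* over *Inx2* show the widest gaps, with mean differences of -2.48 and -3.01, and *alpha-Cat* over *arm* is the pair whose groups overlap.

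**Figure D4:**
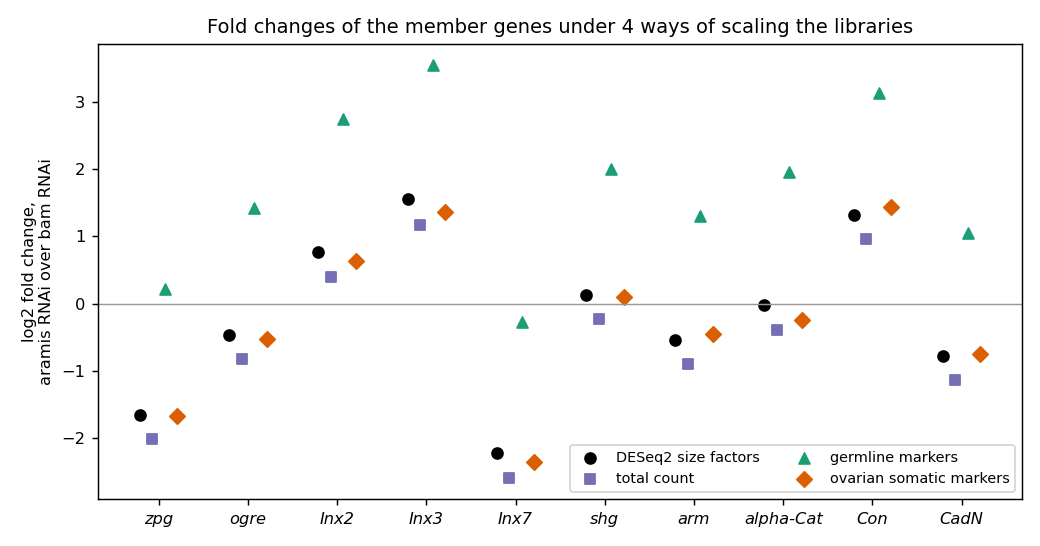
Log2 fold changes of the 10 genes, *aramis* RNAi over *bam* RNAi, under 4 ways of scaling the libraries (marker shapes and colours). Scaling to the germline markers lifts all 10 genes, as it lifts the median of all genes to 1.82. It brings *zpg* (0.22) and *Inx7* (-0.27) close to 0, and the other 3 scalings lie near each other.

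Levels of different genes were compared as counts per kilobase of longest transcript scaled to the library total (RPKM). In *aramis* RNAi, where *arm* and *Inx2* overlapped, the order began with *Inx3* at 625 ± 76.4, *arm* at 200.4 ± 11.6 and *Inx2* at 174 ± 29.1 RPKM (SD, n = 2). In *bam* RNAi, where *Inx3* overlapped both *arm* and *zpg*, the order of the means began with *arm* at 371 ± 94.5, *Inx3* at 277 ± 172 and *zpg* at 169 ± 5.27 RPKM (SD, n = 2). *zpg*, at 41.8 ± 0.0522 RPKM (SD, n = 2), had rank 7 of 10 in both *aramis* RNAi libraries, against ranks 2 and 4 in *bam* RNAi. Next in *aramis* RNAi stood *alpha-Cat* (81.7 ± 17.3), *ogre* (59.7 ± 10.1) and *shg* (57.0 ± 6.28 RPKM, SD, n = 2), of which *ogre* and *shg* overlapped. In *bam* RNAi, *zpg* was followed by *Inx2* (133 ± 62.8), *alpha-Cat* (107 ± 50.5) and *ogre* (105 ± 2.06 RPKM, SD, n = 2), and neighbours in this stretch did not differ beyond their spread. *shg* had 66.7 ± 3.56 RPKM (SD, n = 2) there.

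The lowest 3 of the 10 genes were *Con*, *Inx7* and *CadN* in both groups. *Con* had 10.5 ± 0.0223 RPKM in *aramis* RNAi and 5.39 ± 2.19 RPKM in *bam* RNAi, and *Inx7* had 7.06 ± 0.238 RPKM and, in *bam* RNAi, 42.6 ± 16.0 RPKM (SD, n = 2 each). *CadN* was lowest in all 4 libraries, at 1.82 ± 0.422 RPKM in *aramis* RNAi and 3.98 ± 1.23 RPKM in *bam* RNAi (SD, n = 2 each). *Inx7* stood at percentiles 48.1 and 44.9 of all tested genes in *aramis* RNAi, against 74.0 and 84.3 in *bam* RNAi. *zpg* stood at 83.5 and 83.5 in *aramis* RNAi, against 96.5 and 95.8 in *bam* RNAi.

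Other adhesion and junction genes came from 6 lists, the remaining innexins among them, and the 68 tested genes included 15 that rose and 4 that fell, 22.1% and 5.88%. Over all genes tested the shares were 8.9% and 7.04%. The median log2 fold change was 0.52, and -0.09 over all genes. The genes of septate junctions, the barrier junctions of insect epithelia and glia, had 7 of 16 that rose, 0 that fell and a median of 1.00. *Lac*, *kune* and *nrv2*, which encode an immunoglobulin protein, a claudin and a sodium pump subunit, had the smallest adjusted p of that list. *kune* had 6466 and 5584 normalised counts in *aramis* RNAi, against 1710.0 and 1999.8 in *bam* RNAi (log2 fold change 1.70, DESeq2 adjusted p = 0.000627). *Lac* had 10188 and 7456 against 2134 and 2968 in *bam* RNAi (1.79, DESeq2 adjusted p = 0.000622), and *nrv2* had 4205 and 4274 against 1228 and 1449 in *bam* RNAi (1.66, DESeq2 adjusted p = 0.000826). Without *aramis* RNAi replicate 1 or replicate 2, 0 of the 16 passed, and with scaling to the ovarian somatic markers likewise 0. It was 6 of 16 with total-count scaling and in edgeR, 11 without *bam* RNAi replicate 1 and 15 with scaling to the germline markers. On the germline marker scale the list median was 2.88, beside 1.82 for all genes. The muscle, hemocyte, fat body and tracheal markers given above were higher in the same libraries, with 9 of 13, 7 of 9, 4 of 7 and 1 of 5 past the test. Their part in the septate junction counts was not tested.

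Integrins and their cytoplasmic partners attach cells to the matrix, in the muscle sheath among other tissues. Of 15 tested, 5 rose and 0 fell, with a median of 0.86. *Itgbn*, an integrin beta subunit known from hemocytes and gut, had 1991 and 1648 normalised counts in *aramis* RNAi, against 330.4 and 638 in *bam* RNAi (log2 fold change 1.91, DESeq2 adjusted p = 0.00101). *stck* and *Ilk*, which encode the PINCH and ILK proteins of one complex, had log2 fold changes of 1.49 (DESeq2 adjusted p = 0.00745) and 1.32 (0.0102). The number past the test was 2 in edgeR, 1 with total-count scaling, 0 with scaling to the ovarian somatic markers, 0 without *aramis* RNAi replicate 1 or 2, 9 without *bam* RNAi replicate 1 and 14 with scaling to the germline markers. On the germline marker scale the list median was 2.71, beside 1.82 for all genes, and with scaling to the ovarian somatic markers it was 0.86. Summed muscle and hemocyte markers were higher in the same libraries, as given above, and their part in the integrin counts was not tested.

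The 13 further cadherins were mixed, with 2 higher and 3 lower. *stan*, the seven-pass cadherin of planar polarity, had 1183 and 1388 normalised counts in *aramis* RNAi, against 259.9 and 289 in *bam* RNAi, which is 2.23 on the log2 scale (SE 0.43) with a DESeq2 adjusted p of 1.32e-05. It was past the test in each of the fits without a library, at a DESeq2 adjusted p of 0.0456 at most. *Cad99C*, known for the microvilli of follicle cells, had 68.8 and 96.2 against 497 and 616 in *bam* RNAi, which is -2.75 on the log2 scale (SE 0.49) with a DESeq2 adjusted p of 1.81e-06. *Cad99C* was also past the test without any 1 library (0.0338 at most), whereas scaled to the germline markers it had -0.83 (DESeq2 adjusted p = 0.187). *Cad88C*, at 6.16 and 10.7 against 47.4 and 92.7 in *bam* RNAi (log2 fold change -3.06, DESeq2 adjusted p = 0.00786), was past it only without *bam* RNAi replicate 1 (0.0409), and without each of the other 3 libraries the values were 0.239, 0.0640 and 0.248. The eggshell and yolk markers summed to 441 and 371 CPM in *aramis* RNAi, against 1274 and 1072 CPM in *bam* RNAi, and their part in the *Cad99C* value was not tested. The 6 of 10 that were lower did not include the yolk genes *Yp1*, *Yp2* and *Yp3* (DESeq2 adjusted p = 0.162, 0.496 and 0.82).

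Of the 13 adherens junction partners, which include *p120ctn*, *Vinc* and *baz*, 0 passed the test in DESeq2 and 0 in edgeR, and the smallest unadjusted DESeq2 p was 0.101 (*p120ctn*). Their log2 fold changes lay between -0.78 (*jub*) and 0.71 (*cno*) with a median of 0.20, which was -0.15 with total-count scaling. Scaled to the germline markers 12 of 13 were higher, but the list median of 2.04 was then near the 1.82 of all genes. Of the 10 other leucine-rich repeat and immunoglobulin proteins, 1 fell. This was *kek1*, an inhibitor of the EGF receptor, with 373 and 410.3 normalised counts in *aramis* RNAi, against 2594 and 750.5 in *bam* RNAi. Its log2 fold change of -2.09 (DESeq2 adjusted p = 0.00276) was -0.94 without *bam* RNAi replicate 1 (DESeq2 adjusted p = 0.145) and -0.33 scaled to the germline markers (0.672). The DESeq2 adjusted p was 0.0707 with scaling to the ovarian somatic markers, and 0.223 and 0.101 without *aramis* RNAi replicate 1 or 2.

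**Figure D5:**
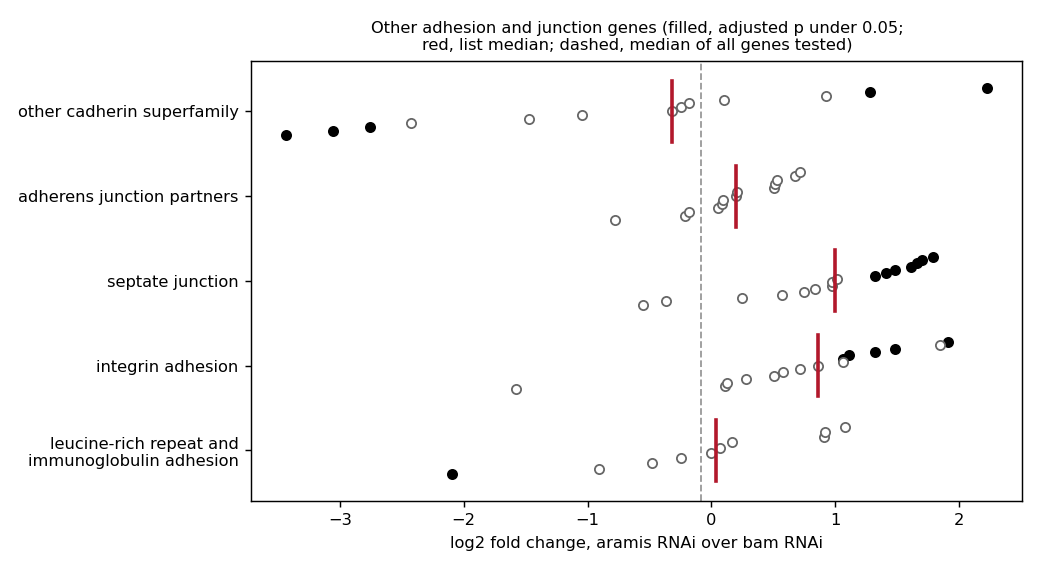
Log2 fold changes, *aramis* RNAi over *bam* RNAi, of the tested genes of 5 adhesion and junction lists; each point is a gene, filled where the DESeq2 adjusted p was under 0.05, with the list median in red and the median of all genes (-0.09) dashed. The septate junction (median 1.00) and integrin (median 0.86) lists lie to the right of the dashed line, and the adherens junction partners hold no filled point.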

How the data were processed

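Per the labels, RNA was extracted with TRIzol, selected for poly(A) and made into libraries with a directional kit, with fragmentation for 13 minutes. The authors deposited raw counts of reads per FlyBase gene, 1 table per library, without scaling for depth or length. The submitters' processing notes list HISAT2 2.1.0, featureCounts 1.4.6, DESeq2 1.24.0 and the dm6 build. The strand setting is not given in the sources used here, so antisense overlaps leave counts uncertain. Symbols, positions and longest transcripts came from Ensembl release 115 of dm6 (16647 of 17023 identifiers matched). Markers and list genes not matched to an identifier were not used, *vas* and *nos* among them.

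The 11128 genes whose counts reached 10 in total across the libraries entered DESeq2 1.42.0 (Wald test, group as the only term, Benjamini-Hochberg adjustment), at an adjusted p under 0.05 and, as a stricter limit, over 4-fold. Both limits were taken from a paper that re-used the *bam* RNAi libraries and does not describe the *aramis* RNAi libraries. Intervals are 1.96 SE. Library totals were 16754980 and 15530745 for *aramis* RNAi and 12977013 and 14764740 for *bam* RNAi. The fits were tested on simulated data. Chi-square per degree of freedom between replicates came to 75.2 for *aramis* RNAi and to 212 for *bam* RNAi, so no library was a copy of another.

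Alternatives were edgeR 4.0.16, other scalings, count filters, a transcript length offset, a replicate block, no independent filtering, and leaving out each library. The genes, lists and rule for naming genes (all 10 genes, the targeted genes, the other innexins, and up to 3 genes of each list with the smallest adjusted p under 0.05) were chosen with earlier results of these data known. *tj*, *slbo*, *jub*, *cno*, *p120ctn*, *Vinc*, *baz* and the single germline, neural, hemocyte, tracheal and yolk markers fall outside that rule and were named after their values were seen.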

Additional observations from a re-analysis of the deposited data

How the results depend on the processing

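The main limits are the 2 libraries per group and the choice of scaling. Scaled to the germline markers, the median log2 fold change of all genes was 1.82, against -0.09 with the DESeq2 size factors and -0.45 with total-count scaling. The sign changed for *zpg* (0.22), *ogre* (1.43), *arm* (1.30), *alpha-Cat* (1.95) and *CadN* (1.05). Relative to the median of 1.82, *alpha-Cat* lay above and the others below. Past both limits 4279 genes were then higher and 38 lower (333 and 362 with the size factors, higher genes making up 99.1% and 47.9%), with 7 and 0 of the 10 genes and 54 and 0 list genes past an adjusted p of 0.05. With total-count scaling the numbers were 167 and 622 (21.2% higher) for all genes, 0 higher among the 10 genes and 8 higher list genes, and *shg* turned to -0.23. Scaling to the ovarian somatic markers gave 148 and 193, with 0 higher and 1 lower of the 10 genes and 1 higher list gene. In edgeR 0 of the 10 genes and 9 list genes were higher. At least 10 counts in every library gave 225 lower genes and 2 lower list genes. The transcript length offset turned *alpha-Cat* to 0.00931.

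Libraries of the same number did not deviate alike, as their deviations had a correlation of -0.161 over 11128 genes (-0.543 over 7883 with a mean of at least 50 counts). With 2 libraries per group, a negative value means that libraries of unlike number deviated alike, as in the crossed pairing below. With the number as a replicate block, 212 genes were lower past both limits, 1 of the 10 genes (*Inx3*) was higher, with *Con* past the threshold no longer (DESeq2 adjusted p = 0.121), 5 list genes were higher (septate junction 3, integrin 1, and *shakB* not, at 0.137), and *alpha-Cat* was 0.0385. The block in edgeR, chosen after the data were seen, gave 188 higher and 191 lower genes, 0 and 0 of the 10, 0 septate junction and 0 integrin genes, and 0.0177 for *alpha-Cat*. The crossed pairing, also added then, set *aramis* RNAi replicate 1 with *bam* RNAi replicate 2, and the reverse. It gave 351 higher and 323 lower, with 3 higher and 2 lower of the 10 genes, 12 septate junction and 8 integrin genes higher.

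Leaving out each library in turn, with the lone library of its group assumed to vary like the other group, higher genes past both limits ran from 85 to 504 and lower genes from 103 to 386. Of the 10 genes 0 to 2 were higher and 0 to 2 lower, and of the list genes 1 to 29 were higher and 1 to 3 lower. Both counts of the 10 genes were 0 without either *aramis* RNAi library. *alpha-Cat* ran from -0.39 to 0.49. The within-library ratios kept their direction when any 1 library was left out, except *alpha-Cat* to *arm* (-0.22 to 1.31). The causes of these differences were not tested.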
